A study of Homo sapiens with 10 samples.

Results

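Cadherins are the adhesion receptors with which neighbouring cells hold on to each other in a calcium-dependent way, and the set of cadherins that a cell carries decides largely which cells it will stick to. Their ectodomains bind cadherins on the next cell, while the short cytoplasmic tail of the classical members binds β-catenin and p120-catenin, which link it to actin. In the early nervous system the neural plate replaces E-cadherin (CDH1), the cadherin of epithelia and of pluripotent cells, by N-cadherin (CDH2), and the type II cadherins then mark regions of the neural tube, the neural crest and groups of neurons. The 10 genes described here form a list of classical cadherins, made with earlier results of these data known, out of 24050 tabulated genes. They are the type I members CDH1, CDH2, CDH3 (P-cadherin) and CDH4 (R-cadherin), the type II members CDH6 (K-cadherin), CDH7, CDH8, CDH10 and CDH11 (OB-cadherin), and CDH13 (T-cadherin), which carries classical extracellular repeats but sits on the membrane by a lipid anchor and has no tail for catenins, so that it is not a type I or type II cadherin in the strict sense.

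RNA was sequenced from wild-type (WT) cells and from cells in which ZNF274, a zinc finger protein of the KRAB family, had been knocked out (KO). HEK293T is a human embryonic kidney line that grows as an adherent sheet, and it gave 3 WT libraries (S15, S16 and S17) and 3 ZNF274 KO libraries (S18, S19 and S20). Neural progenitor cells (NPCs) were made through embryoid bodies from the H1 line of human embryonic stem cells and gave 2 WT libraries (S3 and S5) and 2 ZNF274 KO libraries (S1 and S2). The KO cells were made with Cas9 and a pair of guide RNAs on either side of the gene, selected with puromycin and grown from single sorted HEK293T cells or picked stem cell colonies, so every KO library carries the history of a clone. The design speaks of independent clones but the labels do not tie a library to one, so the p-values below measure the spread between these libraries, and clone and genotype cannot be told apart where a clone differs. The comparisons ask what the loss of ZNF274 changed in each cell type. Total counts were 21421013 to 32285876 per HEK293T library and 18621266 to 23035490 per NPC library. ZNF274 itself had 423 to 492 counts in the WT HEK293T libraries, 491 and 496 in the WT NPC libraries and 0 in all 5 KO libraries, at least 138-fold lower in HEK293T cells and at least 170-fold lower in NPCs against a floor of 3 counts per library. One KO HEK293T library, S18, stood apart from S19 and S20 over all genes (chi-square per degree of freedom of 81.9 and 72.0, against 10.5 to 45.5 for the other pairs within groups).

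Each gene is given below by its reads per library and by counts relative to library size (CPM, counts per 1000000 counts of the library, with TMM factors over all 10 libraries). Levels of different genes are compared only as CPM per kb of exonic length, since a longer transcript collects more reads. CDH1 lies at chr16:68771195-68869440 on the plus strand of hg19 and CDH3 lies beside it at chr16:68670092-68761371 on the same strand. CDH8 (chr16:61681146-62070939, minus strand), CDH11 (chr16:64977656-65160015, minus strand) and CDH13 (chr16:82660570-83834245, plus strand) are on the same chromosome. CDH2 (chr18:25512843-25757910, minus strand) and CDH7 (chr18:63417488-63557573, plus strand) share chromosome 18, CDH6 (chr5:31193793-31329253, plus strand) and CDH10 (chr5:24487209-24645087, minus strand) share chromosome 5, and CDH4 is at chr20:59827317-60515673 on the plus strand. Reads were counted over exons of each gene. Antisense genes that are also in the count tables overlap exons of CDH2 (ENSG00000227279), CDH3 (CDH3-AS1) and CDH8 (CDH8-AS1), and the setting for strand in the counting is not given in the sources used here, so reads of these pairs could have been counted together or left out as ambiguous.

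The sequences before the start sites are shown for CDH2, CDH4, CDH7, CDH8 and CDH10, the 5 of the 10 genes found in the RefSeq promoter table. CDH4, CDH7, CDH8 and CDH10 are among the 5 genes called in KO NPCs, and CDH2 is the most abundant of the 10. The table (RefSeq, GRCh38.p14) holds 9 start sites for them, and the 250 bases before the site farthest upstream in the table are printed 5′ to 3′ on the strand of the gene. Capitals mark the sequence CAGGTG, the E-box read by the SNAI and ZEB repressors of CDH1, wherever it stands on the printed or the opposite strand. The windows are chr18:28177131-28177380 (minus strand) for CDH2, chr20:61499171-61499420 (plus) for CDH4, chr18:65750002-65750251 (plus) for CDH7, chr16:62036439-62036688 (minus) for CDH8 and chr5:24644979-24645228 (minus) for CDH10. The start sites of CDH2, CDH7, CDH8 and CDH10 shown here are the 5′ ends of the RefSeq genes, whereas that of CDH4 is an internal one, 247160 bases inside the gene, so the window says nothing of the sequence before its first exon.
CDH2: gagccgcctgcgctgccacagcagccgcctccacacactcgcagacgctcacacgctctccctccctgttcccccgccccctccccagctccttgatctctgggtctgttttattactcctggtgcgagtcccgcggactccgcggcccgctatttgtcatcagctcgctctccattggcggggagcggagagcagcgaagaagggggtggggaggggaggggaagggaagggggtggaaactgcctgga
CDH4: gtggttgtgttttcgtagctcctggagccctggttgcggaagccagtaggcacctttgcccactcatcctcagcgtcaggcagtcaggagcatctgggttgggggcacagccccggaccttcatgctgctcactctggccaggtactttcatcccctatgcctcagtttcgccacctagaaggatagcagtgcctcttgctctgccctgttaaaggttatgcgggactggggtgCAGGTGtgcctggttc
CDH7: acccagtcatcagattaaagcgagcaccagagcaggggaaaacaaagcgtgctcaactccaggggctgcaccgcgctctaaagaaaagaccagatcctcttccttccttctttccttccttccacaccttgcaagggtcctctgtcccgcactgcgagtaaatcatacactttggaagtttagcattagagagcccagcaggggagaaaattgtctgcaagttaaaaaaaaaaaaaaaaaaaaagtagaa
CDH8: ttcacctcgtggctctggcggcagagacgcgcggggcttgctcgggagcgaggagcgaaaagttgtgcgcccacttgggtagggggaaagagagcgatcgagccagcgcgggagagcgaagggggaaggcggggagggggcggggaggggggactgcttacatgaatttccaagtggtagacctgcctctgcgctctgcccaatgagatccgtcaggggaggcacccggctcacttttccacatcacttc
CDH10: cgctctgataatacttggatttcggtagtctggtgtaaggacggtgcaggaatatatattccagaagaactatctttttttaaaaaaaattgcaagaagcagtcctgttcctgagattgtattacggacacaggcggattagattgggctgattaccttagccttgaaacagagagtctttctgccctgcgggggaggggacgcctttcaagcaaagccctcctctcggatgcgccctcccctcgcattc

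The windows differ widely in base composition. CDH2 and CDH8 each have 17 or more CpG sites here (17 and 19) and a GC content of 66.0 and 64.0%, whereas the windows of CDH4, CDH7 and CDH10 hold 6, 6 and 10 CpG sites. Over the 35116 promoters of the table the median is 11 CpG sites and 58.0% GC. The other entry of CDH7, whose start site is 760 bases inside the gene, holds 33 CpG sites and 78.4% GC, the most among the 9, and the other entry of CDH2 holds 4. Only this internal window of CDH4 has the E-box, its first base 16 bases before that start site, while 17.5% of all promoter windows of this length hold CAGGTG on a strand. None of the 9 windows holds CATTGT, the core read by SOX proteins, on a strand, compared with 9.3% of all windows. These are matches of letters in a window and no measure of binding.

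In WT HEK293T cells CDH2 and, at a much lower level, CDH1 made up nearly all reads of the 10 genes. CDH2 had 4608, 4111 and 3919 counts (152.7, 141.6 and 132.3 CPM) and CDH1 had 233, 167 and 159 counts (7.72, 5.75 and 5.37 CPM). Per kb of transcript this is 16.6 ± 1.19 CPM for CDH2 (SD, n = 3) and 1.03 ± 0.208 for CDH1, with no overlap between their libraries. The other 8 genes had between 0 and 30 counts in any WT HEK293T library, and their levels per kb overlapped along the order CDH10, CDH4, CDH3, CDH7, CDH8, CDH13, CDH11 and CDH6. CDH6 had 0 counts in all 3 WT libraries, which allows a level of up to 0.0994 to 0.103 CPM, while CDH11 and CDH13 each had 1 count in a single library. Of the summed CPM per kb of the 10 genes, CDH2 held 93.2% ± 0.662 and CDH1 5.78% ± 0.714 in WT HEK293T cells. CDH24 and CDH12, classical cadherins outside the 10 and named after their values were seen, stood near CDH1 there at 1.28 ± 0.21 and 1.14 ± 0.32 CPM per kb.

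WT NPCs carried a broad set of cadherins. CDH2 was again first, with 14545 and 16302 counts (691.0 and 834.8 CPM), and CDH6, a type II cadherin of the neural tube, the early neural crest and kidney epithelium, came next with 12818 and 11594 counts (609.0 and 593.7 CPM). Per kb, CDH2 stood at 88.9 ± 11.9 CPM (SD, n = 2), CDH6 at 48.3 ± 0.865, CDH4 at 11.9 ± 0.857, CDH10 at 4.41 ± 1.22, CDH11 at 4.09 ± 0.0664, CDH3 at 2.69 ± 0.381, CDH8 at 0.923 ± 0.0206, CDH13 at 0.796 ± 0.0233 and CDH7 at 0.139 ± 0.0722. Along this order only CDH10 and CDH11 overlapped. CDH1 was last, with 1 and 0 counts, at or under the floor of 3 counts (0.143 and 0.154 CPM). The share of CDH2 in the summed CPM per kb was 54.7% ± 4.43 in WT NPCs, and CDH6 held 29.9% ± 2.10, CDH4 7.38% ± 0.916, CDH10 2.74% ± 0.898 and CDH11 2.53% ± 0.174.

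**Figure D1:**
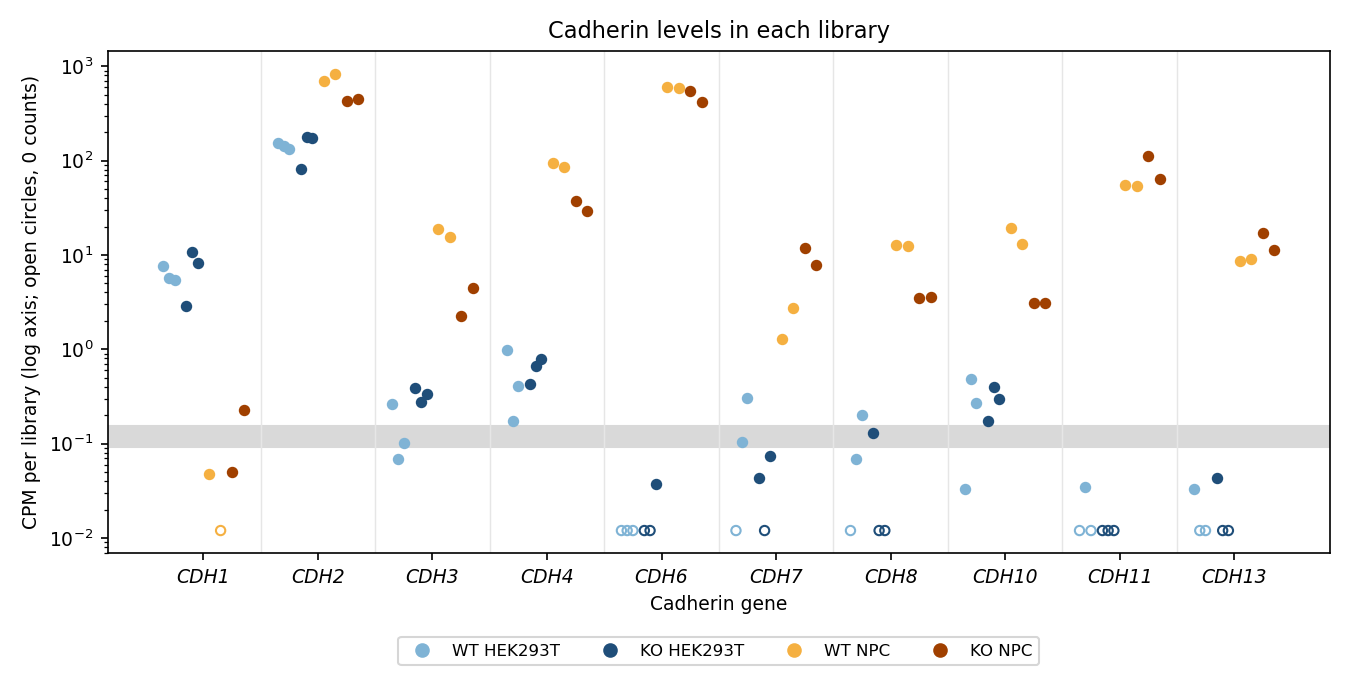
Cadherin levels in each library, in CPM on a log axis, with 1 point per library and open circles at the bottom for 0 counts. The grey band spans the level of 3 counts (0.0916 to 0.154 CPM). CDH1 lies above it in HEK293T libraries, below it in NPC libraries S3, S5 and S1, and above it in S2. CDH6, CDH11 and CDH13 lie below it in all 6 HEK293T libraries.

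To test how far the cell types differ in their cadherins, WT NPCs were compared with WT HEK293T cells in one fit over all 10 libraries. Calls required an adjusted p below 0.05 together with a fold change above 2 (edgeR quasi-likelihood test, Benjamini-Hochberg adjustment over all genes tested). Of the 10 cadherins 9 were higher in NPCs and 1, CDH1, was lower, whereas 25.2% of all 19255 genes tested were called higher and 15.5% lower. The median difference was 6.94 on the log2 scale for the cadherins and 0.125 for all genes. The 10 were listed with earlier results of these data known, and the other classical cadherins tested had a median of 2.30. Cell type, line of origin and count table cannot be told apart here. CDH1 was at least 42.4-fold lower in WT NPCs (edgeR adjusted p = 2.12e-05). CDH2, present in both, was 5.37-fold higher (log2 fold change 2.42, SE 0.255, edgeR adjusted p = 6.18e-06). Against the floor of 3 counts in HEK293T libraries, CDH6 was at least 5934-fold higher, CDH11, a cadherin of mesenchyme and bone, at least 536-fold higher and CDH13 at least 86.7-fold higher. CDH3, CDH4, CDH8 and CDH10 had 0 to 30 counts in WT HEK293T libraries and 240 to 1982 in WT NPCs, with log2 fold changes of 6.83, 7.40, 7.04 and 5.93 (SE 0.482, 0.415, 0.707 and 0.564). CDH7, a type II cadherin of neural crest and spinal cord, had the lowest level in NPCs of those called higher, with 27 and 54 counts (log2 fold change 3.85, SE 0.743).

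Levels of the linkers that the cadherin tail needs differed between the cell types to varying degrees. CTNNB1 (β-catenin) had 777.6 to 852.2 CPM in WT HEK293T and 972.5 and 1164 in WT NPCs. CTNNA1 (αE-catenin), which ties β-catenin to actin, had 192.8 to 220.4 CPM against 676.1 and 567.5, and CTNND1 (p120-catenin), which keeps cadherins at the membrane, had 181.8 to 185.2 against 318.7 and 326.9. The neural forms differed most. CTNNA2 (αN-catenin) had 0 counts in all 6 HEK293T libraries and 1208 and 857 in WT NPCs, and CTNND2 (δ-catenin) had 1 count in a single HEK293T library and 1226 and 1885 counts in WT NPCs. Of 11 catenins and linkers 7 were called higher in WT NPCs and 0 lower. Among the other classical cadherins 4 of 8 tested were called higher and 2 lower, CDH12 and CDH15, the former with 136 to 238 counts in WT HEK293T and 7 and 0 in WT NPCs.

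Without ZNF274, no cadherin was called in HEK293T cells. CDH6, CDH11 and CDH13 had too few reads to be tested (at most 1 count in any of the 6 libraries). Of the other 7, 0 were called higher and 0 lower by edgeR, with 0 at an unadjusted p below 0.05, and DESeq2 and voom also called 0. Over all 19018 genes tested, 0.478% were called higher and 0.0105% lower, and 7.12% stood at an unadjusted p below 0.05 in edgeR. CDH1 had 67, 352 and 219 counts in the KO libraries (2.90, 10.7 and 8.14 CPM), so S18 lay below all WT libraries and S19 and S20 above them. The fitted difference was 0.22 on the log2 scale with a 95% interval from -0.64 to 1.08 (edgeR adjusted p = 0.927). CDH2 had 1863, 5803 and 4613 counts (80.8, 177.1 and 171.5 CPM), again with S18 below and S19 and S20 above the WT range of 132.3 to 152.7 CPM. Its difference was 0.01 (95% interval -0.53 to 0.56, edgeR adjusted p = 0.992). Without S18 the log2 differences were 0.59 for CDH1 and 0.30 for CDH2, neither called, with adjusted p of 0.683 and 0.65 from edgeR. At an unadjusted p below 0.05 in edgeR stood 2 cadherins without S18 and 1 without S15, with 0 called in either case.

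The weakly transcribed cadherins of HEK293T cells gave wide intervals. CDH3 had 8, 2 and 3 counts in WT and 9, 9 and 9 in KO libraries (0.0689 to 0.265 CPM and 0.275 to 0.390 CPM). The groups did not overlap in CPM, and the log2 difference was 1.16 (95% interval -0.33 to 2.66, edgeR adjusted p = 0.775). CDH4 had 30, 5 and 12 counts in WT and 10, 22 and 21 in KO libraries, a log2 difference of 0.27 with an interval from -1.06 to 1.59. CDH10 had 1, 14 and 8 against 4, 13 and 8 counts (0.17, interval -1.53 to 1.88). CDH7 and CDH8 were at or under 3 counts in every KO library and had at most 9 counts in a WT library, so changes of them were not detectable at this depth. CDH2 kept its place in KO HEK293T cells with 92.4% ± 1.17 of the summed CPM per kb (SD, n = 3), followed by CDH1 with 6.26% ± 1.53.

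**Figure D2:**
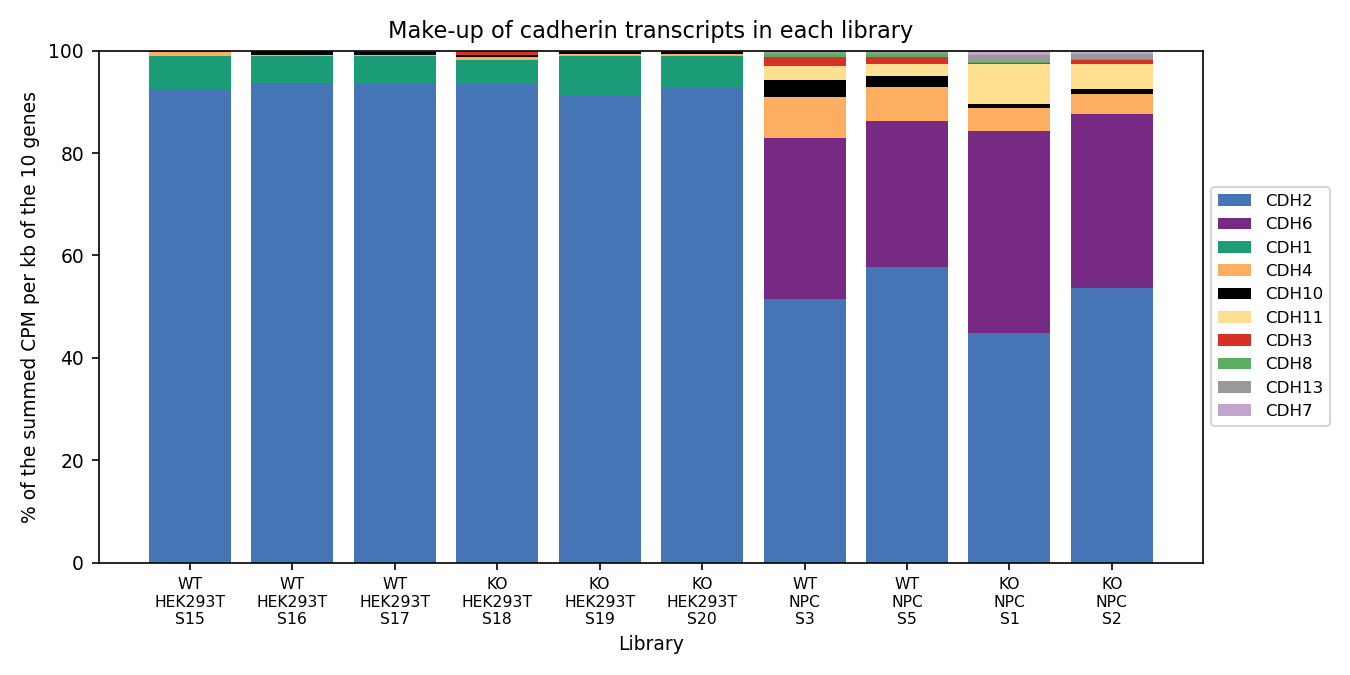
Make-up of the cadherin transcripts in each library, as the share of the summed CPM per kb of exonic length of the 10 genes (axis from 0 to 100%, 1 bar per library). CDH2 fills 91.1 to 93.6% of every HEK293T bar, while CDH2 and CDH6 share most of the NPC bars, with a wider CDH11 segment and a narrower CDH4 segment in both KO NPC libraries.

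In NPCs the loss of ZNF274 went with changed levels of several cadherins, while CDH2 and CDH6 stayed the highest per kb. The type I genes CDH3 and CDH4 and the type II genes CDH8 and CDH10 fell, and the type II gene CDH7 rose. That is 4 of 10 called lower and 1 higher, beside 8.36% lower and 8.45% higher among all 20577 genes tested. At an unadjusted p below 0.05 stood 8 of the 10 cadherins, against 40.3% of all genes, and the median log2 difference was -0.58 for the cadherins and -0.02 for all genes. These are bulk libraries, in which fewer cells of a type and less RNA per cell cannot be told apart.

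CDH10 and CDH3 fell by about the same factor, and their order changed between analyses. CDH10, which is found mainly in brain, had 406 and 253 counts in WT NPCs (19.3 and 13.0 CPM) and 62 and 67 in KO NPCs (3.08 and 3.07 CPM). Both KO libraries were far below both WT libraries, a 5.29-fold fall (log2 fold change -2.40, SE 0.276, edgeR adjusted p = 0.0011). CDH3, which is best known from placenta, hair follicle and basal epithelia, had 398 and 302 counts (18.9 and 15.5 CPM) and fell to 45 and 98 (2.24 and 4.49 CPM). Its fall was 5.14-fold (log2 fold change -2.36, SE 0.344, edgeR adjusted p = 0.0028). S1 was the lower of the KO libraries, and both lay well below the WT libraries. CDH8, a cadherin of cortical and spinal neurons and their synapses, went from 267 and 240 counts (12.7 and 12.3 CPM) to 71 and 79 (3.53 and 3.62 CPM), with little spread inside either group. It fell 3.52-fold (log2 fold change -1.82, SE 0.231, edgeR adjusted p = 0.00165). CDH4, a type I cadherin of retina and brain, went from 1982 and 1661 counts (94.2 and 85.1 CPM) to 754 and 634 (37.5 and 29.1 CPM). This was a 2.72-fold fall (log2 fold change -1.44, SE 0.158, edgeR adjusted p = 0.000897).

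CDH7 was the only one of the 10 called higher in KO NPCs. It had 27 and 54 counts in WT (1.28 and 2.77 CPM) and 238 and 172 in KO libraries (11.8 and 7.89 CPM), a 4.83-fold rise (log2 fold change 2.27, SE 0.423, edgeR adjusted p = 0.00765). The call was lost without S1, where the log2 fold change was 1.94 and the edgeR adjusted p was 0.0667, and kept without S2. Even in KO NPCs CDH7 was among the weaker cadherins per kb of transcript, at 0.679 ± 0.192 CPM.

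The most abundant pair moved less. CDH2 had 14545 and 16302 counts in WT and 8580 and 9843 in KO NPCs (691.0 and 834.8 against 426.7 and 451.4 CPM). Both KO libraries were below both WT libraries, and the log2 difference of -0.81 (SE 0.122, 95% interval -1.10 to -0.52, edgeR adjusted p = 0.00318) was 1.76-fold and so short of the fold threshold. CDH6 had 10966 and 9003 counts in KO NPCs (545.4 and 412.9 CPM, against 609.0 and 593.7 in WT), with a log2 difference of -0.34 (95% interval -0.69 to 0.004, edgeR adjusted p = 0.127). Over the alternative analyses this difference ran from -0.57 to -0.16. CDH11 had 2265 and 1407 counts in KO against 1157 and 1049 in WT NPCs (112.6 and 64.5 against 55.0 and 53.7 CPM). Its log2 difference was 0.69 (95% interval 0.12 to 1.27, edgeR adjusted p = 0.0753), S1 being well above the other 3 libraries. The value turns on the KO library kept. Without S2 it was called, at 1.03 with an edgeR adjusted p of 0.0115, and without S1 it was 0.22 with an edgeR adjusted p of 0.488. CDH13 ran beside CDH11 with 344 and 248 counts in KO and 181 and 175 in WT NPCs (17.1 and 11.4 against 8.60 and 8.96 CPM). The log2 difference of CDH13 was 0.68 (95% interval 0.08 to 1.29, edgeR adjusted p = 0.0886). Over the alternative analyses it ran from 0.35 to 0.94. CDH1 had 1 and 0 counts in WT and 1 and 5 in KO NPCs, so no difference was detectable at this depth.

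**Figure D3:**
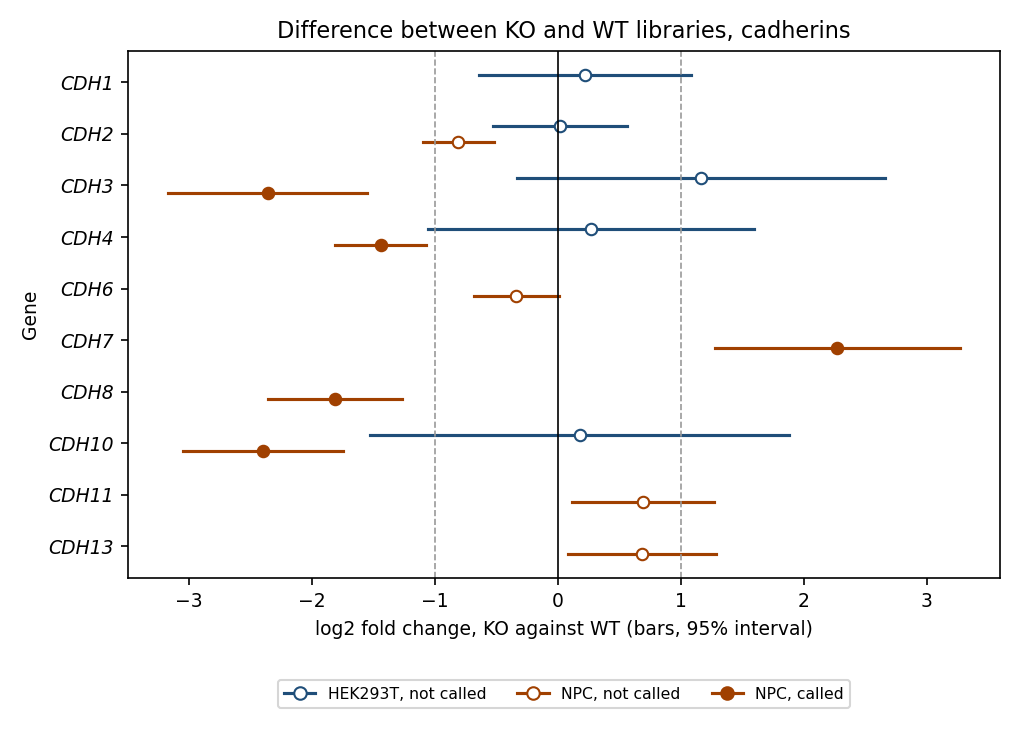
Log2 fold change of KO against WT libraries for each cadherin with its 95% interval from edgeR, in HEK293T cells (blue) and NPCs (brown); filled points were called and dashed lines mark a 2-fold change. CDH3, CDH4, CDH8 and CDH10 in NPCs lie wholly left of the left dashed line and CDH7 wholly right of the right one, while all HEK293T intervals cross 0; genes with a group at or under 3 counts in every library, or with too few reads to test, are not drawn.

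The make-up of the cadherins in NPCs was read as shares of their summed level. The summed CPM per kb of the 10 genes was 156.2 and 168.2 in WT and 110.9 and 97.9 in KO NPCs. CDH2 held 49.3% ± 6.26 of it in KO NPCs (SD, n = 2), a range that overlapped that of the WT libraries (51.6 and 57.8% in WT, 44.9 and 53.7% in KO). CDH6 held 36.7% ± 4.0 in KO against 29.9% ± 2.10 in WT NPCs. CDH11 took 7.66 and 4.96% in KO against 2.65 and 2.41% in WT NPCs, and ranked just behind CDH2 and CDH6 per kb with 6.67 ± 2.56 CPM, a level that overlapped that of CDH4 (4.43 ± 0.793 CPM). CDH4 held 4.23% ± 0.389 of the sum and CDH10 0.809% ± 0.0688, each below its share in both WT libraries. These shares are descriptive and were not tested.

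An interaction term, fitted over all 10 libraries, asked whether the KO acted differently on a cadherin in NPCs than in HEK293T cells. It was called for CDH3 (1 of 10, lower in NPCs), where all genes gave 6.01% higher and 6.22% lower of 19255. The log2 difference between the effects was -3.50 for CDH3 (SE 0.680, edgeR adjusted p = 0.00502), with HEK293T libraries that held only 2 to 9 counts of it. For CDH10 it was -2.57 (SE 0.815, edgeR adjusted p = 0.0522), for CDH7 4.04 (SE 1.30, edgeR adjusted p = 0.0556), for CDH4 -1.70 (SE 0.582, edgeR adjusted p = 0.0693) and for CDH2 -0.81 (SE 0.362, edgeR adjusted p = 0.158), none of them called. CDH7 had 0 to 9 counts in HEK293T libraries, where no change of it was detectable, so its value rests partly on a HEK293T difference within that limit. The count depends on single HEK293T libraries. Without S15 it was 4 (CDH3, CDH4, CDH7 and CDH10), without S16 2 (CDH3 and CDH10) and without S18 4 (CDH2, CDH3, CDH4 and CDH10), with -1.09 for CDH2 in the last (edgeR adjusted p = 0.00085). The interaction was not called for CDH1, which had 0 to 5 counts in NPC libraries, nor for CDH6, CDH8, CDH11 and CDH13, with adjusted p of 0.398 to 0.913 from edgeR and at most 6 counts in any HEK293T library, too few reads for their effects to be compared.

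The cytoplasmic partners were taken from a list of 11 catenins and linkers. In KO NPCs 4 of 11 fell and 0 rose, and in KO HEK293T cells 0 of 9 tested were called. Those that fell were CTNNA2, CTNND2, CTNNA3 and ARVCF. CTNNA2 went from 1208 and 857 counts in WT to 23 and 7 in KO NPCs (log2 fold change -6.14, SE 0.430, edgeR adjusted p = 0.000167), and CTNND2 from 1226 and 1885 to 189 and 161 (-3.22, SE 0.274, edgeR adjusted p = 0.000334). CTNNA3 (αT-catenin) had 71 and 134 counts in WT and 34 and 21 in KO NPCs, and ARVCF, a p120 relative, had 354 and 602 against 117 and 185, with log2 fold changes of -1.96 and -1.75. The forms found in most tissues were not called. The log2 difference was -0.25 for CTNNB1 (95% interval -0.56 to 0.06), 0.04 for CTNNA1 (-0.24 to 0.32) and 0.15 for CTNND1 (-0.09 to 0.39). JUP (plakoglobin), PKP4 and VCL (vinculin) stood at 0.80, 0.69 and 0.83, each with an adjusted p below 0.05 in edgeR (0.00187, 0.00812 and 0.0155) but under the fold threshold.

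Enzymes that cut cadherins at the cell surface or process their precursors were read from a second list. In KO NPCs 3 of 10 tested rose and 0 fell. ADAM10, the main sheddase of CDH1 and CDH2, went from 87.8 and 87.3 CPM to 217.4 and 196.3 (log2 fold change 1.23, SE 0.110, edgeR adjusted p = 0.000404). ADAM15 went from 49.6 and 46.9 to 95.2 and 107.0 CPM (1.05, SE 0.117, edgeR adjusted p = 0.00096), and MMP14, a membrane-bound metalloprotease, from 40.6 and 30.6 to 159.4 and 140.2 CPM (2.06, SE 0.163, edgeR adjusted p = 0.000267). FURIN, which removes the cadherin prodomain, stood at 0.93 (95% interval 0.59 to 1.26, edgeR adjusted p = 0.00329), under the fold threshold. In HEK293T cells 0 of 9 tested were called.

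**Figure D4:**
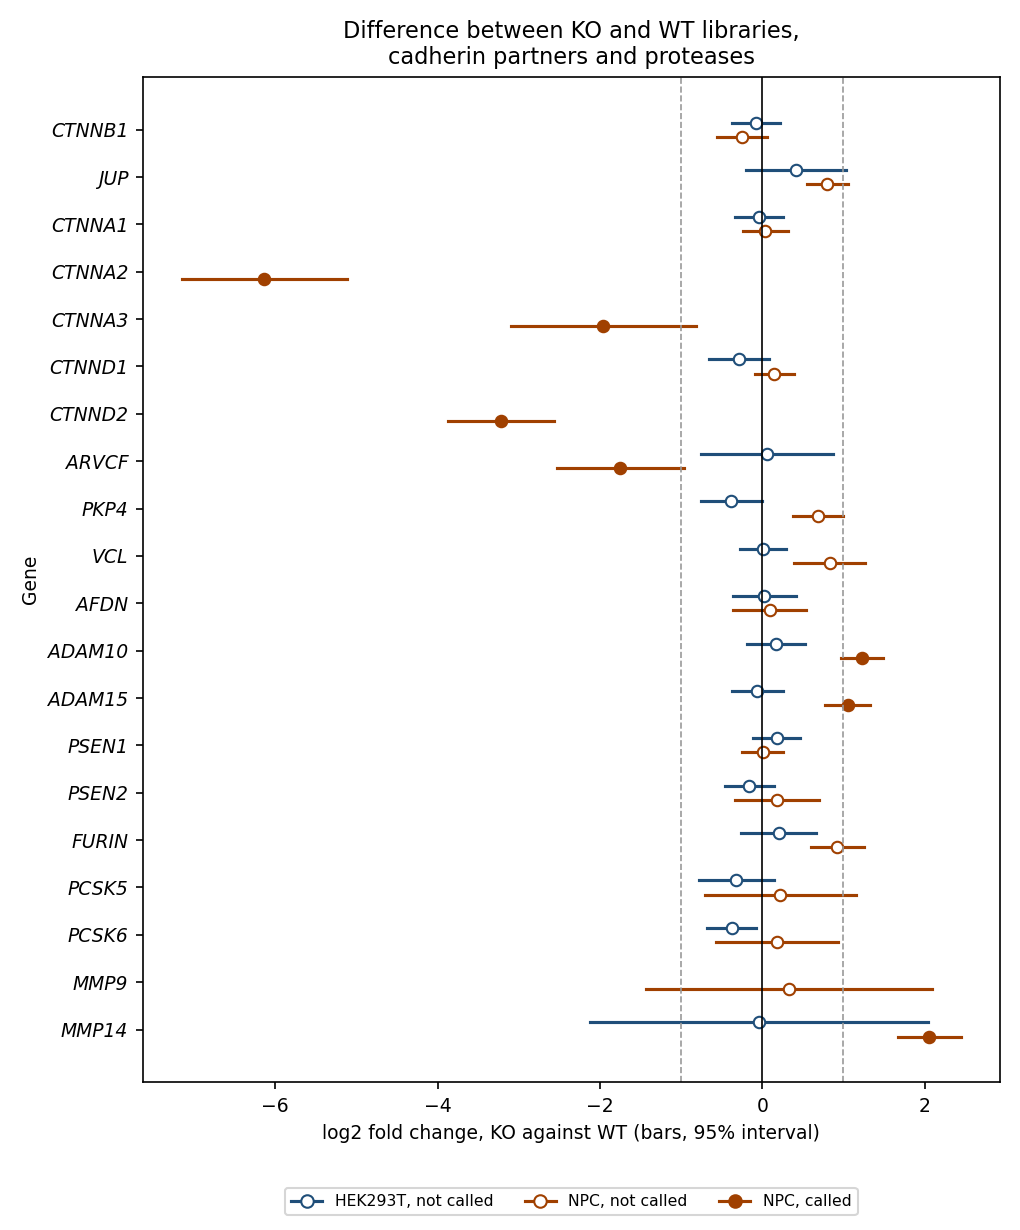
Log2 fold change of KO against WT libraries with 95% intervals for catenins and linkers (CTNNB1 to AFDN) and for proteases that act on cadherins (ADAM10 to MMP14), in HEK293T cells (blue) and NPCs (brown); filled points were called and dashed lines mark a 2-fold change. CTNNA2, CTNNA3, CTNND2 and ARVCF are the filled points on the left and ADAM10, ADAM15 and MMP14 those on the right; genes with a group at or under 3 counts in every library are not drawn for that cell type.

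Other classical cadherins split in the same comparison. Of 8 tested in KO NPCs 3 rose (CDH5, CDH15 and CDH19) and 2 fell (CDH18 and CDH20). CDH20, like CDH7 a type II cadherin of neural tube and crest, went from 377 and 264 counts to 6 and 1 (log2 fold change -6.51, SE 0.534, edgeR adjusted p = 0.000297), opposite to CDH7. CDH18 went from 91 and 143 counts to 6 and 3 (-4.73, SE 0.538, edgeR adjusted p = 0.00106). CDH19, known from Schwann cells, had 0 counts in both WT and 126 and 47 in both KO NPC libraries, and CDH15, the cadherin of muscle, was at least 12.0-fold higher with 2 and 3 against 40 and 34 counts. CDH5, the cadherin of endothelium, had 17 and 131 counts in WT NPCs, far apart from each other, and 461 and 833 in KO NPCs (3.02, SE 0.748, edgeR adjusted p = 0.0232). Transcription factors that repress CDH1 at E-boxes were counted as well. In KO NPCs 3 of 7 tested rose (SNAI2, ZEB2 and TWIST1) and 1 fell (TCF3), with SNAI2 going from 24.3 and 17.7 to 174.9 and 132.4 CPM (2.86, SE 0.207, edgeR adjusted p = 0.000188), while CDH1 had 0 to 5 counts in all 4 NPC libraries.

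Markers of cell types were read from further lists in KO NPCs, where 8.45% of all genes were called higher and 8.36% lower. Of 8 neural progenitor markers 5 fell (SOX1, SOX2, PAX6, FABP7 and POU3F2) and 0 rose. SOX2 went from 227.8 and 219.2 to 12.8 and 21.5 CPM (log2 fold change -3.72, edgeR adjusted p = 0.000107), and SOX1 from 154 and 989 counts to 1 and 2. The summed level of that list was 9679 and 9860 CPM in WT and 9773 and 10390 in KO NPCs, because VIM and NES, which were not called, make up nearly all of it. Of 5 neuron markers 3 fell, and their summed level was 1044 and 1137 CPM in WT and 201.0 and 156.4 in KO NPCs, beside which CDH8, CDH10 and CTNNA2 were also low. MAP2 made up nearly all of that sum (995.9 and 1090 against 167.1 and 131.2 CPM), and STMN2 and TUBB3 were not called, with log2 differences of 0.32 and -0.06. Of 10 mesenchymal markers 5 rose and 0 fell, with a summed level of 1330 and 2226 CPM in WT and 5368 and 6144 in KO NPCs. COL1A1 (mean 602.3 CPM in WT and 3524 in KO) and COL3A1 (68.8 and 838.6) carried most of that difference, and COL1A2 was not called, with a log2 difference of 0.07. CDH11 beside them had 53.7 and 55.0 CPM in WT and 64.5 and 112.6 in KO NPCs. Of 5 neural crest markers SOX10 and NGFR rose, and the summed level went from 1.09 and 3.84 CPM to 36.9 and 9.86, S1 being the higher. Of 10 epithelial markers tested KRT8, KRT18 and SPINT1 rose, with sums of 403.6 and 646.6 against 1411 and 1597 CPM that KRT8 and KRT18 make up for the most part. EPCAM and CLDN4 were lower in both KO NPC libraries than in both WT libraries but were not called, with log2 differences of -0.57 and -0.55. CLDN6 went the other way, from 64.3 and 64.6 to 101.1 and 127.7 CPM. Its log2 difference was 0.81 (edgeR adjusted p = 0.00487), under the fold threshold. ESRP1 and CLDN7, with at most 15 counts in an NPC library, were also higher in KO and not called. RAB25 had at most 6 counts in any NPC library. The muscle genes DES and TNNT2 rose, while the defining factors MYOD1 and MYOG have no value here, and the sum went from 3.18 and 3.66 to 174.5 and 197.6 CPM. Among 3 endothelial markers tested KDR was called lower, with WT libraries far apart (22.4 and 110.7 CPM, against 13.4 and 12.1 in KO), and 1 pluripotency marker of 3 (LIN28A) fell. In HEK293T cells 0 markers of these lists were called by edgeR in the KO. The part of cell composition in the cadherin results was not tested.

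Across all 10 libraries the genes whose level ran most alike were found by Pearson's r of log2(CPM + 0.5) among 13713 genes with a mean of at least 1 CPM. CDH13 was the gene most like CDH11 (r = 0.999), both having at most 1 count in any HEK293T library and their highest level in S1, and TMSB4XP8 and ZNF132 came next (both r = 0.999). The genes most like CDH2 were ALMS1 (r = 0.993), PLCG1 (r = 0.991) and PTPRG (r = 0.991), and those most like CDH1 were NSMCE1 (r = 0.997), ZNF276 (r = 0.995) and SERBP1P1 (r = 0.991). The libraries fall into a cluster for each cell type, so these values mostly describe the gap between HEK293T cells and NPCs, and no test was made of them.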

How the data were processed

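The authors aligned reads of stranded poly(A) libraries with hisat2 (hg19), used featureCounts to count those with a unique position over genes and transposable elements, and deposited 1 table of raw counts per gene for each cell type (22750 genes for HEK293T cells, 20965 for NPCs). Versions and the strand setting of the counting are not given in the sources used here. Members and gene lists were chosen with earlier results of these data known. The tests were run with edgeR 4.0.16 under R 4.3.3 (quasi-likelihood test after TMM scaling, Benjamini-Hochberg adjustment over all genes tested), each cell type by itself, over genes with a total count of at least the number of libraries, following the filter of the study. The comparison of cell types and the interaction used the genes of both tables in 1 fit of 10 libraries. Calls needed an adjusted p below 0.05 and a fold above 2. The steps were tested on simulated data in which only well-covered genes were changed, so detection at few counts was not tested there. DESeq2 1.42.0, voom (limma 3.58.1), other filters and scalings, and leaving out each library were the alternatives. Within every group the counts of 2 libraries differed beyond sampling noise, and no label pairs WT with KO libraries. Limits drawn from a floor of 3 counts per library cover counting error only. Positions and exonic lengths come from GENCODE v44 lifted to GRCh37. From each gene list the text names genes called with a mean of at least 5 CPM in a group, at most 4 per comparison by fold, and any catenin; other list genes were named after their values were seen, to complete a count or a background value.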

Additional observations from a re-analysis of the deposited data

Results flagged for a closer look

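For CDH3 the effect of the ZNF274 KO differed between the cell types. The difference between the log2 fold changes in NPCs and HEK293T cells was -3.50 (edgeR interaction test, adjusted p = 0.00502). CDH3 was lower in both KO NPC libraries than in both WT NPC libraries (45 and 98 against 398 and 302 counts), whereas in HEK293T cells the KO libraries held 9 counts each against 8, 2 and 3 in WT. The HEK293T side of this difference therefore rests on fewer than 10 reads per library. It was called in each of the alternative analyses run, with values from -4.24 to -3.08 and adjusted p of at most 0.0237.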

How the results depend on the processing

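In HEK293T cells 8 of the 10 cadherins had at most 30 counts in any library, which limits what could be detected there, and each NPC group had 2 libraries. In KO NPCs CDH3, CDH4, CDH8 and CDH10 were called lower under each alternative, and CDH7 higher under each except without S1. Without a fold threshold CDH2 joined them (6 called), and leaving out single libraries gave 4 to 6 called. In KO HEK293T cells 0 cadherins were called under each alternative, and in the comparison of WT cells the calls did not change. The number of cadherins whose KO effect differed between cell types was 4 with DESeq2, 2 with voom, 3 with scaling by library size alone and 1 to 4 when single libraries were left out. Library size alone moved the median log2 difference of all genes from -0.022 to -0.130 in NPCs and from -0.025 to -0.238 in the interaction. In KO HEK293T cells, where no difference was called, leaving out single libraries moved CDH1 from -0.17 to 0.59, CDH2 from -0.16 to 0.30 (-0.06 with voom), CDH4 from -0.15 to 1.12, CDH8 from -4.49 to 0.16 and CDH10 from -0.34 to 0.94, so that their sign is not fixed. The interaction ran, on the same basis, from -1.91 to 2.48 for CDH8 and from -1.08 to 2.42 for CDH13. The cause of these changes was not tested. No paired analysis was possible because the labels give WT and KO libraries no shared replicate number.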
